A study of Triticum monococcum with 54 samples.

Results

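Einkorn grain taken at 300 degree days (°Cd) after anthesis from plants fed neither nitrogen (N) nor sulfur (S) was compared with grain of the same age from plants fed both. The unfed treatment is N-S-, with 0 mM N and 0 mM S, and the fully fed treatment is N+S+, with 6 mM N and 2 mM S. Each had 3 libraries, so 6 of the 54 libraries of the study were compared, over all 32047 accessions (gene models of the authors' reference) in their tables. The whole study sampled grain every 100 °Cd from 100 to 600 °Cd in 18 groups of 3 libraries, with 2 further treatments from 300 °Cd, N+S- (6 mM N, 0 mM S) and N-S+ (0.5 mM N, 2 mM S).

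The plants were Triticum monococcum ssp. monococcum, a cultivated diploid wheat, of the line ERGE 35821, grown in a greenhouse in columns of perlite and sand. All columns, the fully fed ones included, received only demineralized water between transplanting and anthesis, and the nutrient solutions were supplied between 200 and 700 °Cd. Grain at 300 °Cd was therefore the first sampled after feeding began, and grain at 200 °Cd, which the labels place under N-S-, is the stage just before it. The labels give 3 biological replicates per group but do not say which columns or how many grains made up each, so p-values measure the spread between these samples. Flour of grain was extracted, and polyadenylated RNA was sequenced with strand kept, as paired reads of 125 bases. In such samples fewer cells of a type and less RNA per cell cannot be told apart.

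A cereal grain at this age is filling. Its endosperm cells build starch and storage proteins, the gliadins and glutenins of wheat, from sugars and amino acids that the plant supplies, and these proteins come from a small number of very strongly expressed gene families. N supply is known to set how much storage protein is made, and S supply is known to shift the balance between S-rich and S-poor kinds, because cysteine and methionine carry the S. The files pair no accession with a gene name or description, so no accession is given a role below, the tissue could not be checked against marker genes, and the lists planned for storage proteins, S assimilation, N metabolism, starch and the green pericarp could not be applied.

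The 3 N-S- libraries held 3196089 to 3372489 counts and the 3 N+S+ libraries 3543322 to 3890332, and all 6 were on sequencing lane 3. Of the 32047 accessions, 9591 had no count in any of the 6 libraries and 13527 (42.2%) had enough counts to be tested. On a log2 scale of CPM (counts scaled to a common library total), libraries of 1 treatment correlated at 0.961 to 0.969 and libraries of different treatments at 0.951 to 0.962. The first principal component, with 31.7% of the variance, put all N-S- libraries on one side and all N+S+ libraries on the other, and the second, with 19.5%, spread N+S+ replicates 1 and 3 apart. Any accession with near-identical copies is uncertain where the authors' counting could split reads between copies.

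A small share of accessions was called different between grain without N and S and fully fed grain. In N-S- grain 187 accessions were higher and 125 were lower at a Benjamini-Hochberg adjusted p under 0.05 in edgeR's quasi-likelihood test. These 312 calls were 2.31% of the accessions tested, with 1.38% higher and 0.924% lower. Without the adjustment, 1880 accessions had a p under 0.05. The changes were mostly modest. The median change in size among all 312 was 0.73 on the log2 scale, 94 changed at least 2-fold (45 higher, 49 lower) and 21 at least 4-fold (7 higher, 14 lower). The libraries of the 2 treatments did not overlap for 305 of the 312, against 18.9% of all tested accessions. These were 184 of the 187 higher, against 9.74% of all tested, and 121 of the 125 lower, against 9.18%. No called accession was at 0 in all libraries of 1 treatment.

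**Figure D1:**
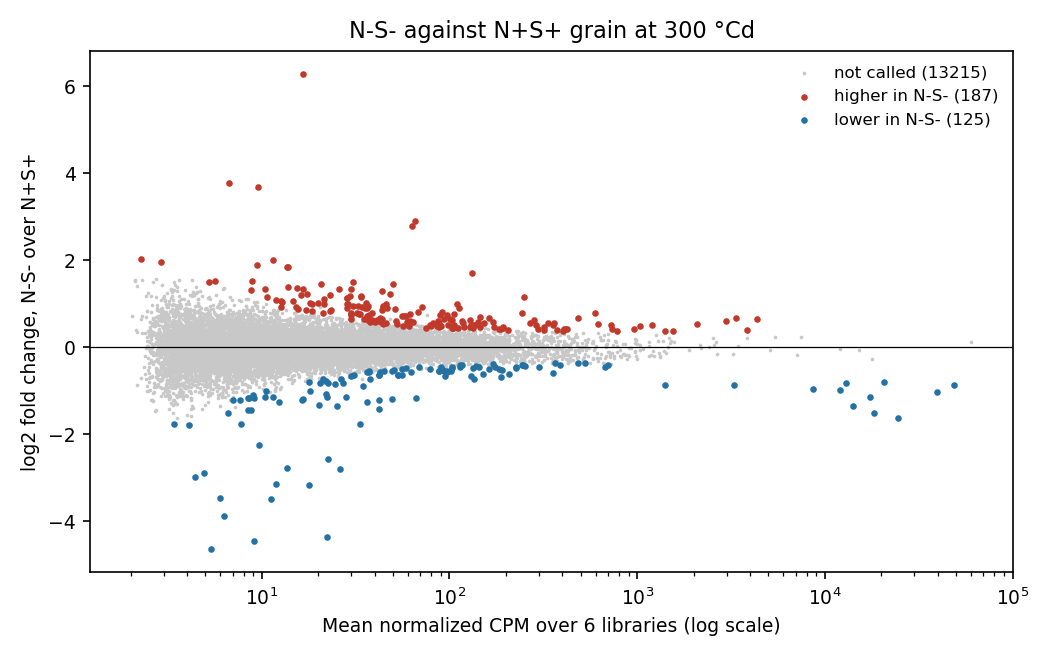
Each point is 1 of the 13527 tested accessions; the x axis is its mean normalized CPM over the 6 libraries (log scale) and the y axis its log2 fold change, N-S- over N+S+, with red points called higher (187) and blue points called lower (125). The changes of 4-fold and more lie under 100 CPM, and a separate group of 12 called lower lies above 1000 CPM.

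The count of calls depended on single libraries and on the scaling. It was 158 without N-S- replicate 1, 184 without N-S- replicate 2 and 203 without N+S+ replicate 3. With library totals alone in place of TMM factors the median of all tested accessions stood at 0.21 rather than -0.002 on the log2 scale, and 987 accessions were called higher and 56 lower, with 243 of the 312 among them. In a fit to all 30 libraries of these 2 treatments, 44 accessions were called, 41 of them among the 312.

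The accession with the largest rise was TmLoc042692, a model of 2828 bases. It had 64, 112 and 169 counts in the N-S- libraries, against 0, 2 and 2 in the N+S+ libraries, or 18.5, 34.0 and 45.5 normalized CPM against 0, 0.590 and 0.600. It was at or near 0 in every fed library and well above that in every unfed one. The log2 fold change was 6.27 ± 0.48 (SE, edgeR adjusted p 4.62e-09), a size that rests on the 4 counts of the fed libraries.

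TmLoc014099, a model of 1130 bases, was the other accession chosen for its rise. It had 86.8, 95.2 and 165 normalized CPM in the N-S- libraries, against 21.9, 10.0 and 14.1 in the N+S+ libraries. The lowest unfed library was well above the highest fed one, and the log2 fold change was 2.91 ± 0.22 (SE, edgeR adjusted p 4.62e-09).

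The largest falls among accessions with a mean of at least 10 CPM were those of TmLoc021586 and TmLoc039315. TmLoc021586, a model of 1064 bases, had 0.289, 3.64 and 2.15 normalized CPM in the N-S- libraries, against 45.0, 20.4 and 61.8 in the N+S+ libraries, and its raw counts were 1, 12 and 8 against 160, 69 and 206. Its log2 fold change was -4.37 ± 0.41 (SE, edgeR adjusted p 1.13e-07). TmLoc039315, a short model of 168 bases, had 0.868, 2.43 and 2.15 normalized CPM against 21.9, 10.0 and 30.0, a log2 fold change of -3.48 ± 0.41 (SE, edgeR adjusted p 5.33e-06). For both, N-S- replicate 1 was the lowest of the unfed libraries and N+S+ replicate 2 the lowest of the fed ones, and the treatments did not overlap.

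**Figure D2:**
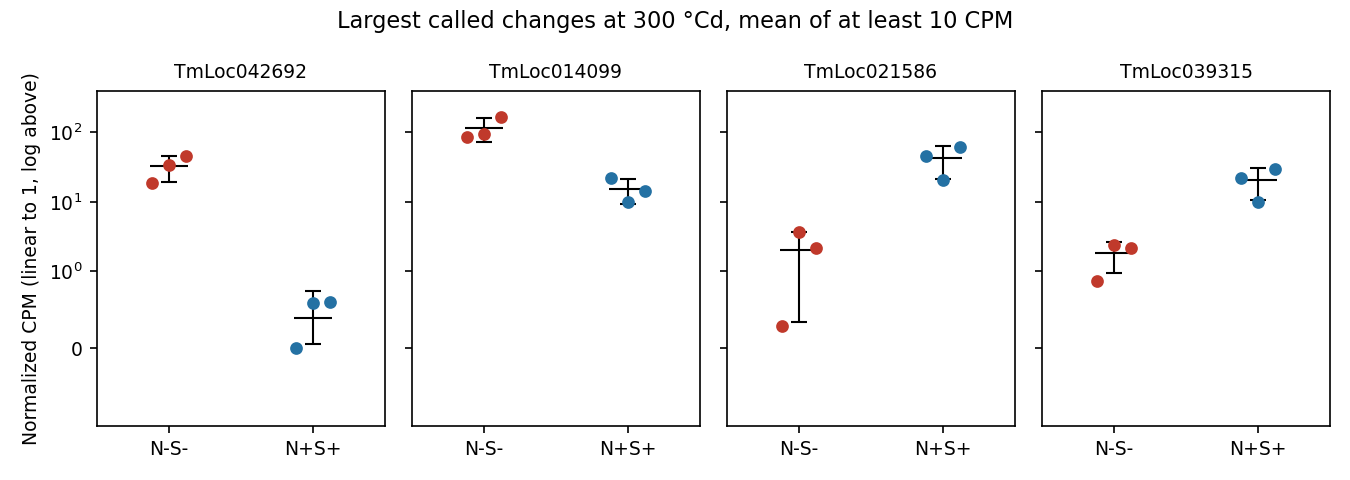
Normalized CPM of 4 accessions in each N-S- library (red, left) and N+S+ library (blue, right); the y axis is linear up to 1 and logarithmic above, and the bars are the mean ± SD (n = 3). TmLoc042692 and TmLoc014099 lie higher in N-S- grain and TmLoc021586 and TmLoc039315 lower, with no overlap.

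The 14 accessions at least 4-fold lower shared this pattern across libraries. Their raw counts ran between 0 and 33 in N-S- libraries and between 12 and 227 in N+S+ libraries. Their median level was 0.724, 2.27 and 2.29 normalized CPM in N-S- replicates 1, 2 and 3, against 20.9, 8.26 and 26.7 in N+S+ replicates 1, 2 and 3. N+S+ replicate 2 was the lowest fed library for all 14, and N-S- replicate 1 the lowest unfed library for 12. With any 1 library left out, 13 or 14 of them were still called. The 7 accessions at least 4-fold higher had median levels of 16.5, 17.3 and 28.2 normalized CPM in the N-S- libraries, against 1.41, 1.18 and 1.80 in the N+S+ libraries, and N-S- replicate 3 was the highest for 6 of the 7. With any 1 library left out, 6 of the 7 were still called. These lists were formed from the fold changes themselves, so their levels are a description.

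The share of accessions called was higher among abundant accessions. Under 3 normalized CPM, 2 of 272 were called higher (0.735%) and 0 lower by edgeR. Among those with a mean of 3 to 10 normalized CPM, 0.159% were called higher and 0.431% lower, and among those of 100 to 1000 CPM, 4.24% higher and 2.42% lower. Of the 62 accessions at 1000 CPM and above, 9 were called higher (14.5%) and 12 lower (19.4%). The precision of a test also grows with counts, and the median fold change of the calls ran the other way, from 1.51 and -1.76 at 3 to 10 CPM to 0.50 and -0.46 at 100 to 1000 CPM on the log2 scale. The 12 abundant accessions that fell stood apart from that course, with a median of -0.97.

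Those 12 carried most of the RNA that the called accessions hold. The 125 accessions called lower took 14.1%, 18.8% and 15.2% of all counts in N-S- replicates 1, 2 and 3, against 26.0%, 32.4% and 27.9% in the N+S+ replicates. Without the 12, the remaining 113 took 0.876%, 0.878% and 0.948%, against 1.21%, 1.06% and 1.18%. The 187 called higher took 5.54%, 5.32% and 4.92%, against 3.14%, 3.04% and 3.06%. The median level of the 12 was 7984, 10823 and 9349 normalized CPM in the N-S- libraries, against 16817, 27283 and 19636 in the N+S+ libraries. With any 1 library left out, all 12 were still called. In that fit to 30 libraries, with 1 spread for every stage, 1 of the 12 was called, at a median log2 fold change of -0.98.

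The 20 accessions with the most counts together took 29.5%, 32.4% and 27.7% of counts in the N-S- libraries, against 37.0%, 42.9% and 39.3% in the N+S+ libraries. The mean share was 29.8 ± 2.36% in N-S- grain and 39.7 ± 2.97% in N+S+ grain (SD, n = 3 each), a difference of -9.86 percentage points. Every unfed library lay below every fed one, and the exact two-sided permutation test gave p = 0.1, the smallest that 3 against 3 allows. Counting error was far smaller, since the widest 95% Wilson interval of a share reached 0.051 points either side. Such intervals cover counting error only, because the reads carried no molecular identifiers.

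Among these 20, 10 were called lower and 2 higher in N-S- grain. The 10 that fell were all short models, of 379 to 903 bases, and together took 12.9% to 17.6% of counts in N-S- libraries, against 24.2% to 30.8% in N+S+ libraries. The remaining 10 took 13.7% to 16.6%, against 12.1% to 13.1%, and 7 of them were of 1 kb or more. The number lower was 10 under each of the 5 scalings, and the number higher was 1 with upper-quartile factors and 4 with library totals alone.

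Within the 20, TmLoc025590, a model of 600 bases, had one of the largest losses. It took 2.40%, 3.36% and 2.50% of counts in the N-S- libraries, against 4.70%, 5.09% and 4.88% in the N+S+ libraries, a loss of 2.14 percentage points between the means. Its log2 fold change was -1.04 ± 0.14 (SE, edgeR adjusted p 2.62e-05). TmLoc001192, a model of 552 bases, took 3.46%, 4.44% and 3.13%, against 6.03%, 5.43% and 5.99%. Its mean loss was also 2.14 points, with a log2 fold change of -0.86 ± 0.14 (SE, edgeR adjusted p 0.000259). Neither accession overlapped between treatments, and for both the highest unfed library was N-S- replicate 2.

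The most abundant accession of all, TmLoc019089 with 225 bases, did not pass the test. Its share was 7.81%, 6.45% and 5.76% in the N-S- libraries, against 5.41%, 5.06% and 5.57% in the N+S+ libraries, 1.33 points higher in the mean. On the TMM scale its log2 fold change was 0.11 ± 0.13 (SE, edgeR adjusted p 0.769), and it was -0.01 without N-S- replicate 1. TmLoc031120, a long model of 5523 bases, was one of the 2 called higher. It took 0.641%, 0.581% and 0.470% of counts in the N-S- libraries, against 0.296%, 0.318% and 0.324% in the N+S+ libraries, with a log2 fold change of 0.64 ± 0.12 (SE, edgeR adjusted p 0.00172).

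**Figure D3:**
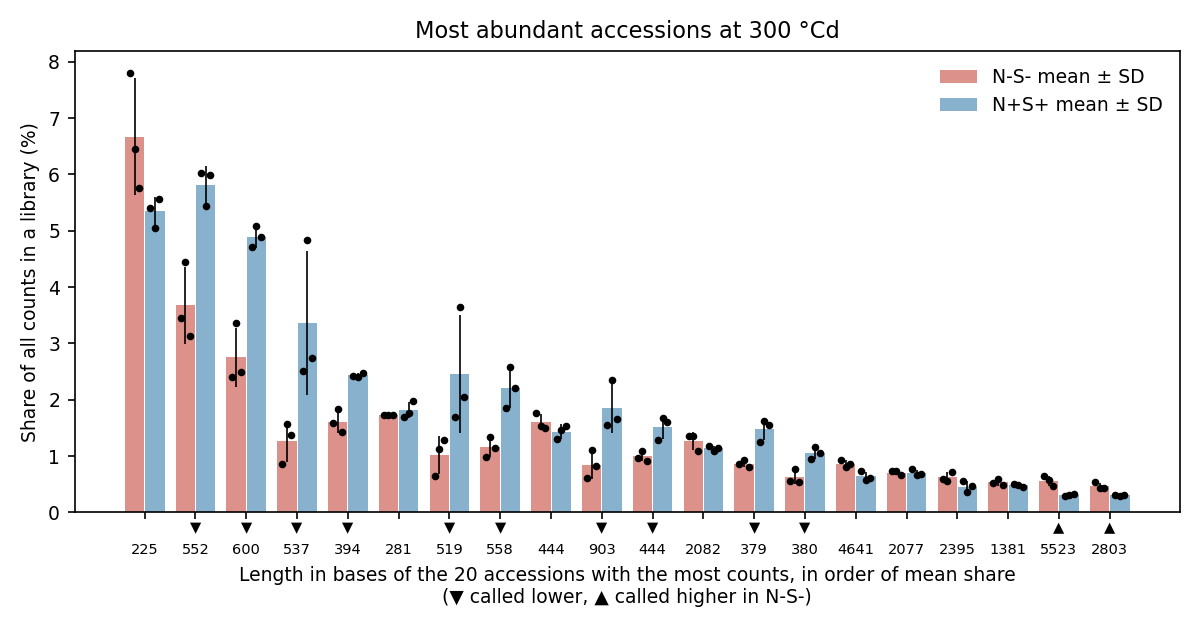
Share of all counts (%) taken by each of the 20 most abundant accessions, labelled by length in bases; bars are means ± SD of 3 libraries, N-S- in red and left and N+S+ in blue and right, points are libraries, and triangles under the axis mark accessions called lower or higher. The 10 called lower are all under 1 kb, and the 2 called higher are over 2 kb.

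Length separated the calls well beyond the abundant accessions. The median length was 3553 bases for the 187 higher, 970 for the 125 lower and 2008 for all tested. Accessions under 1 kb made up 7.49% of those higher, 52% of those lower and 22.8% of those tested. Among the 6791 tested accessions of 2 kb or more, 148 were higher and 25 lower, and among the 1093 under 500 bases, 4 were higher and 30 lower. All tested accessions leaned the same way by a small amount. The median log2 fold change was -0.11 under 500 bases and 0.04 at 2 kb and above. By library, accessions under 500 bases stood -0.02, -0.08 and 0.02 from their 6-library mean in N-S- replicates 1, 2 and 3, against 0.06, 0.07 and 0.06 in the N+S+ replicates.

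With the length trend of each library removed, an alternative chosen after seeing the data, 235 accessions were called, 140 higher and 95 lower, and 222 of them were among the 312. The medians were then 2517 bases for those higher and 1263 for those lower, so the difference in length between the lists narrowed and did not close.

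The number of accessions detected overlapped between the treatments. At equal depth N-S- replicates 1, 2 and 3 had 19111, 19278 and 19704 accessions with a count, against 19126, 19151 and 19205 for the N+S+ replicates. The mean difference of 203 had an exact two-sided permutation p of 0.4. With at least 5 counts required after thinning the difference was 310 and the treatments did not overlap (exact permutation p = 0.1, the smallest possible). Without N-S- replicate 1 it was 330, also without overlap (exact permutation p = 0.1).

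Against grain at 200 °Cd, the last stage before feeding, the 2 lists of called accessions lay differently. Of the 187 higher, 138 stood below both 300 °Cd groups at 200 °Cd, and the median of their log2 changes since 200 °Cd was 1.12 in N-S- grain and 0.42 in N+S+ grain. The 125 lower were mixed, with 46 below both groups at 200 °Cd, 41 between them and 38 above both. Of all 13527 tested accessions, 6035 were below both, 2169 between them and 5323 above both. Accessions called for a difference at 300 °Cd have a wider gap between the 2 groups, so more can fall between them. For the 125 lower the median change since 200 °Cd was -0.30 in N-S- grain and 0.31 in N+S+ grain. For all tested accessions it was 0.04 in each treatment. The 12 abundant accessions that were lower in N-S- grain all stood above their level at 200 °Cd, by a median of 1.56 in N-S- grain and 2.54 in N+S+ grain on the log2 scale. For scale, the step between 200 and 300 °Cd in N-S- grain, which shares the N-S- libraries, called 5674 of 14545 accessions (39.0%), with 2819 higher (19.4%) and 2855 lower (19.6%) at 300 °Cd.

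The same treatments were compared at 400 and at 600 °Cd, with no library in common with 300 °Cd. At 400 °Cd 116 of 11068 accessions were called (1.05%), 55 higher (0.497%) and 61 lower (0.551%) in N-S- grain. At 600 °Cd 22 of 12344 were called (0.178%), 13 higher (0.105%) and 9 lower (0.0729%). At 500 °Cd the treatments were on different lanes, so treatment and lane cannot be told apart and no test was made. The 400 °Cd count was 60, 214 and 53 without N-S- replicates 1, 2 and 3, and 76 and 77 without N+S+ replicates 2 and 3. The 600 °Cd count was 1 without N-S- replicate 3, and 4, 5 and 64 without N+S+ replicates 1, 2 and 3.

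The accessions lower at 300 °Cd mostly leaned the same way later. Of the 113 tested at 400 °Cd, 94 had a negative log2 fold change (83.2%, against 49.9% of all tested) and 26 were called lower, with a median of -0.38. At 600 °Cd 81 of 107 were negative (75.7%, against 51.8%) and 7 were called lower, with a median of -0.20. The accessions higher at 300 °Cd showed little of this. At 400 °Cd 97 of 181 were positive (53.6%, against 50.1%), 9 were called higher and 1 lower, and at 600 °Cd 98 of 184 were positive (53.3%, against 48.2%) and 6 were called higher. Their medians were 0.05 and 0.04 on the log2 scale.

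The length trend itself did not keep its sign between stages. Accessions under 500 bases had a median log2 fold change of 0.08 at 400 °Cd and 0.00 at 600 °Cd, and those of 2 kb or more had -0.04 and -0.01. With the trend removed at each stage, the lists of 300 °Cd were called anew. Of those lower, 77 of 86 were negative at 400 °Cd (89.5%, against 49.9% of all tested) and 63 of 81 at 600 °Cd (77.8%, against 51.7%). Of those higher, 85 of 135 were positive at 400 °Cd (63.0%, against 50.1%) and 74 of 138 at 600 °Cd (53.6%, against 48.3%).

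The abundant accessions that were lower kept a negative fold change later, and some passed the test again. All 10 of the top 20 that fell at 300 °Cd were negative at 400 °Cd, where 4 were called and the median log2 fold change was -0.66, and at 600 °Cd, where 5 were called and the median was -1.25. For the 12 lower accessions at 1000 CPM and above, the median level in N-S- grain was 109, 3402, 9969, 9417, 5900 and 5184 CPM at 100, 200, 300, 400, 500 and 600 °Cd. In N+S+ grain it was 23475, 13705, 10998 and 12155 CPM at 300, 400, 500 and 600 °Cd. The mean of N-S- grain was below that of N+S+ grain for all 12 at 400, 500 and 600 °Cd. At 500 °Cd the treatments were on different lanes, so treatment and lane cannot be told apart there. The library medians overlapped at 400 °Cd. They were 8406, 11728 and 7806 CPM in N-S- replicates 1, 2 and 3, against 16760, 10212 and 14899 CPM in the N+S+ replicates.

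The 14 accessions at least 4-fold lower had low levels before feeding. Their median level in N-S- grain was 0.378, 1.33, 2.03, 3.53, 13.5 and 32.1 CPM at 100, 200, 300, 400, 500 and 600 °Cd. In N+S+ grain it was 20.2, 21.7, 37.9 and 44.8 CPM at 300, 400, 500 and 600 °Cd. At 200 °Cd every one of the 14 was at a mean of 0.280 to 2.62 CPM. By 600 °Cd the level in N-S- grain was above that of N-S- grain at 300 °Cd for all 14 and above that of N+S+ grain at 300 °Cd for 9, whereas at 400 °Cd it was still below N+S+ grain at 300 °Cd for 12. At 400 °Cd 10 of the 11 tested were called lower, and at 600 °Cd 0 of the 13 tested by edgeR, a stage with 22 calls in all, although 11 of the 14 still had a lower mean in N-S- grain there. The 14 were chosen for N-S- levels far below N+S+ levels at 300 °Cd, so the counts against those levels are a description. Their shares over all accessions were not computed. The stages were on different lanes, so stage and lane cannot be told apart along these courses.

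The 7 accessions at least 4-fold higher had a median level of 7.89, 7.64, 19.4, 25.6, 24.9 and 27.4 CPM in N-S- grain at 100, 200, 300, 400, 500 and 600 °Cd. In N+S+ grain it was 1.45, 7.68, 8.66 and 5.96 CPM at 300, 400, 500 and 600 °Cd. For all 7, the level at 300 °Cd in N+S+ grain was below the level at 200 °Cd. The 7 were chosen for N+S+ levels far below N-S- levels at 300 °Cd, so this is a description. Its share over all accessions was not computed. At 400 °Cd 5 of the 6 tested were called higher, and at 600 °Cd 4 of 6.

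**Figure D4:**
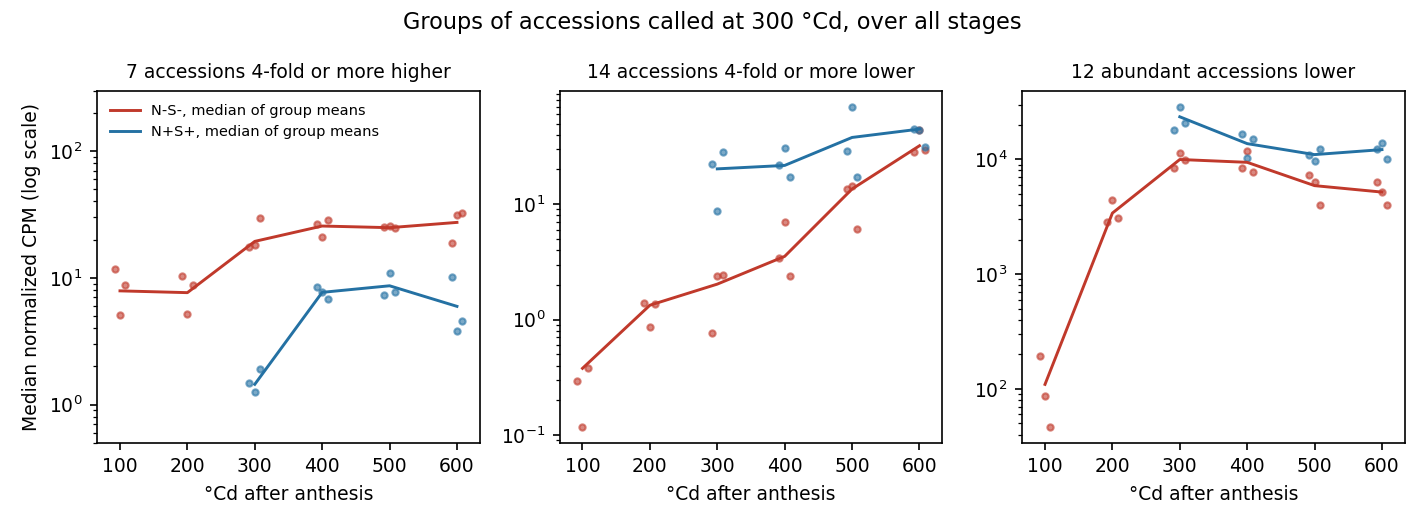
Median normalized CPM (log axis) of 3 groups of accessions at 100 to 600 °Cd after anthesis in N-S- grain (red) and N+S+ grain (blue); lines join medians of group means, points are library medians, and 400 °Cd and later were on other lanes than 300 °Cd. The 14 accessions at least 4-fold lower reach 32.1 CPM in N-S- grain at 600 °Cd, near the 44.8 CPM of N+S+ grain. The lines of the 7 higher and the 12 abundant accessions stay apart, with library points of the 12 overlapping at 400 °Cd. At 500 °Cd the treatments were on different lanes.

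The later levels of the named accessions differed. TmLoc042692 had 35.4 ± 13.4 CPM in N-S- grain and 7.68 ± 0.83 CPM in N+S+ grain at 400 °Cd, and 138 ± 47.5 CPM and 21.8 ± 7.5 CPM at 600 °Cd (SD, n = 3 each). Its log2 fold change was 2.19 ± 0.37 at 400 °Cd (SE, edgeR adjusted p 0.0017) and 2.67 ± 0.29 at 600 °Cd (SE, edgeR adjusted p 0.00205). TmLoc014099 had log2 fold changes of 2.62 ± 0.19 (SE, edgeR adjusted p 2.83e-09) and 2.10 ± 0.31 (SE, edgeR adjusted p 0.0137) at those stages. Both passed the test as higher in N-S- grain at each stage.

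TmLoc039315 had 35.4 ± 21.2 CPM in N-S- grain and 203 ± 29.7 CPM in N+S+ grain at 400 °Cd, and 403 ± 39.0 CPM and 682 ± 294 CPM at 600 °Cd (SD, n = 3 each). Its log2 fold change was -2.55 ± 0.25 at 400 °Cd (SE, edgeR adjusted p 4.27e-07) and -0.77 ± 0.24 at 600 °Cd (SE, edgeR adjusted p 0.569). TmLoc021586 had 3.78 ± 2.87 CPM in N-S- grain and 19.9 ± 11.7 CPM in N+S+ grain at 400 °Cd, with a log2 fold change of -2.42 ± 0.58 (SE, edgeR adjusted p 0.0331). At 600 °Cd it had 7.99 ± 2.98 CPM and 4.84 ± 0.99 CPM, with a log2 fold change of 0.71 ± 0.49 (SE, edgeR adjusted p 0.972).

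Whether the treatment difference at 300 °Cd differed from its mean at 400 and 600 °Cd was tested directly over 18 libraries. Of 14847 accessions, 12 passed (0.0808%), 8 with a more positive difference at 300 °Cd (0.0539%) and 4 with a more negative one (0.0269%), and 1068 had an unadjusted p under 0.05. All 12 were among the 312. The difference was 3.80 ± 0.70 for TmLoc042692 (SE, edgeR adjusted p 0.0203) and -3.50 ± 0.70 for TmLoc021586 (SE, edgeR adjusted p 0.0281) on the log2 scale. It did not pass for TmLoc039315, at -1.82 ± 0.55 (SE, edgeR adjusted p 0.328), nor for TmLoc014099, at 0.54 ± 0.35 (SE, edgeR adjusted p 0.80). Of the 14 accessions at least 4-fold lower, 2 were among the 12 that passed. TmLoc031790, of 6279 bases, was higher in N-S- grain at 300 °Cd by 1.35 ± 0.21 (SE). It had -0.57 at 400 °Cd and -0.59 at 600 °Cd, and neither passed (edgeR adjusted p 0.610 and 0.944). TmLoc031553, of 1289 bases, was lower by -1.27 ± 0.20 (SE) at 300 °Cd. It had 0.04 at 400 °Cd and 0.81 at 600 °Cd, and neither passed (edgeR adjusted p 0.969 and 0.133). The count was 6 and 5 without N-S- replicates 1 and 2 of 300 °Cd, and 3, 5 and 3 without N+S+ replicates 1, 2 and 3.

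N and S supply change together between N-S- and N+S+. The other 2 treatments at 300 °Cd supply N without S (N+S-) or S with little N (N-S+), and their comparison uses none of the same libraries. The N+S- and N-S+ tables as used here hold only the first 18308 and the first 8649 accessions of the shared table order, so this comparison covers the start of that order and not the rest. The 8649 accessions present in all 4 tables held 26.2% to 29.6% of the counts of the 6 N-S- and N+S+ libraries, and 3045 of them were tested. N+S- grain had 25 accessions higher (0.821%) and 3 lower (0.0985%) than N-S+ grain, 28 in all (0.920%). The count was 17 and 18 without N+S- replicates 1 and 2, and 13 and 11 without N-S+ replicates 1 and 2.

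The accessions called between unfed and fed grain mostly had the same sign in this second pair. Of the 187 higher in N-S- grain, 45 were tested here, and all 45 had a positive log2 fold change, N+S- over N-S+, against 47.9% of all tested. Of these, 16 were called, and the median was 0.53, against 0.67 for the same accessions between N-S- and N+S+ grain. Of the 125 lower, 32 were tested and 29 were negative (90.6%, against 52.1%), with 3 called and a median of -0.41, against -0.65. The second pair had a length trend of the same sign as N-S- over N+S+ grain at 300 °Cd. Its median log2 fold change was -0.12 under 500 bases and 0.04 at 2 kb and above. With the length trend removed, the lists were called anew. Of those, 33 of 34 higher were positive (97.1%, against 47.8% of all tested) and 19 of 22 lower were negative (86.4%, against 52.2%). The rest of the 312 calls were not tested here.

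Over the 4 treatments, the median log2 CPM of the 46 accessions of the higher list with rows in every table was 7.96 under N-S-, 7.83 under N+S-, 7.52 under N-S+ and 7.25 under N+S+. For the 33 of the lower list it was 7.54, 7.65, 8.03 and 8.13 in the same treatments. N+S- grain was nearer to N-S- than to N+S+ grain for 43 of the 46 and 29 of the 33, and N-S+ grain was nearer to N-S- for 3 and 7. Nearness was measured to the libraries that chose the lists, and its share over all tested accessions was not computed, so these counts are a description. The treatments of each S level also differ in N supply, and the separate parts of N and S were not tested. All 4 treatments share lane 3 at this stage.

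**Figure D5:**
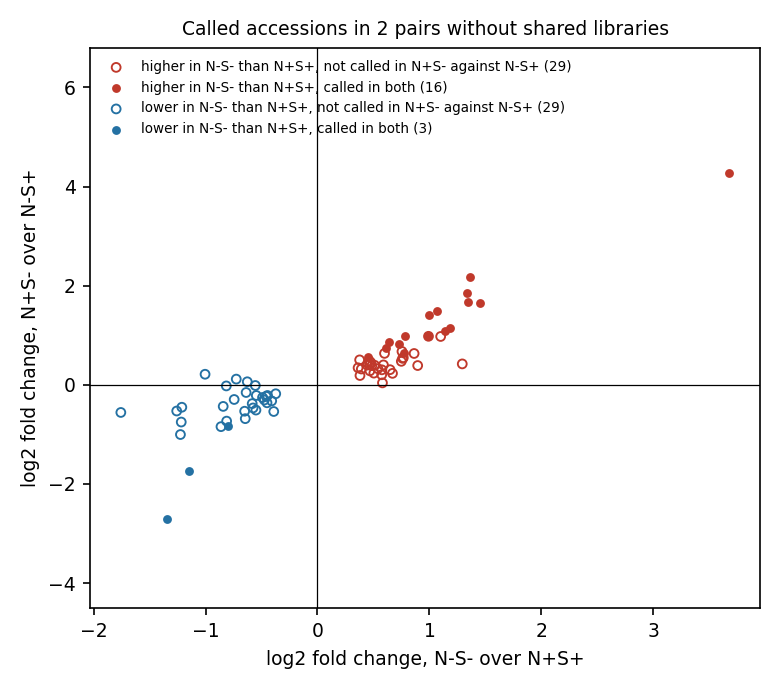
log2 fold change of N+S- over N-S+ grain (y axis) against that of N-S- over N+S+ grain (x axis) at 300 °Cd, for the 77 accessions called in the N-S- and N+S+ pair and tested in both; filled points were called in both pairs. All 45 red points lie above 0 and 29 of the 32 blue points below it.

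In N+S- grain, the accessions named for their fold changes that have values there had means nearer to those of N-S- than of N+S+ grain. On a scale set over the 18308 accessions shared by the N-S-, N+S- and N+S+ tables, TmLoc014099 averaged 374.8 ± 91.4 CPM under N+S-, 212.1 ± 79.0 CPM under N-S- and 28.2 ± 11.1 CPM under N+S+ (SD, n = 3 each). TmLoc021586 averaged 4.57 ± 4.62 CPM under N+S-, 3.71 ± 3.07 CPM under N-S- and 77.8 ± 38.3 CPM under N+S+. In both accessions N+S- and N-S- grain lay far from N+S+ grain. TmLoc019089 passed no test between N-S- and N+S+ grain. It averaged 104957 ± 23639 CPM under N+S-, 114636 ± 19113 CPM under N-S- and 106106 ± 2674 CPM under N+S+, and its libraries overlapped between all of these treatments. TmLoc001192, which has a value in all 4 treatments, had a log2 fold change of -0.84 for N+S- over N-S+ grain (edgeR adjusted p 0.072), against -0.86 for N-S- over N+S+ grain. Among the 14 accessions at least 4-fold lower, 7 had N+S- values, and in all 7 N+S- grain was on the N-S- side. The 4 of the 7 higher accessions and 8 of the 12 abundant ones with N+S- values had N+S- levels further from N+S+ grain than N-S- levels were. The same held for 3 of the 7 lower accessions with N+S- values. Of all called accessions with rows in the 4 tables, it held for 22 of the 46 higher and 9 of the 33 lower. For these lists too, the share over all accessions was not computed.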

How the data were processed

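Per the file headers, the authors deposited 1 table per treatment with raw counts, a normalized signal (headed CPM), the length of each accession and an undefined covered length. The submitters' processing notes name BWA 0.7.12-r1039, CASAVA 1.8.4 and edgeR without a version; no source used here names the reference or the program that counted reads. The deposited normalized signal is the raw count times 1 constant per library within a table, and tables were scaled separately, so the deposited raw counts were the input here and each joined set was scaled together. The N-S- and N+S+ tables hold all 32047 accessions, the N+S- table as used here holds the first 18308 of them and the N-S+ table the first 8649, and the last, incomplete line of the N-S+ table was left out.

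Groups follow the sample labels. Accessions were kept by edgeR's filterByExpr, scaled by TMM (factors 1.04 to 1.11 for unfed and 0.877 to 0.968 for fed grain) and tested with edgeR 4.0.16 in R 4.3.3 (quasi-likelihood, Benjamini-Hochberg adjusted p under 0.05 over all tested accessions). DESeq2 1.42.0 was an alternative. SE is the log2 fold change divided by the root of F. Replicates differed by more than counting noise, with a chi-square per degree of freedom of 3.86 to 8.43. On simulated data with the 13527 accessions of the 300 °Cd comparison, 56% of changes of 1 log2 unit and 87% of changes of 2 were called, with 4.67% false calls. For the test of the difference between stages, over 14847 accessions, the shares were 26%, 72% and 2.97%. The simulated spread followed the trend with abundance alone, with no spread particular to an accession or a library. These shares hold for that setting only.

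Named accessions were the 2 most positive and 2 most negative called log2 fold changes at a mean of at least 10 CPM without overlap, the 2 largest gains and losses of count share among the 20 most abundant, and the 2 most positive and 2 most negative calls of the difference between stages. Levels across stages were scaled over the 30 libraries of the N-S- and N+S+ tables, and log2 levels used a pseudocount of 0.5 CPM. The comparison, the lists and the alternatives were chosen with earlier results of these data known.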

Additional observations from a re-analysis of the deposited data

Results flagged for a closer look

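The difference between N-S- and N+S+ grain at 300 °Cd departed from its mean at 400 and 600 °Cd for 12 accessions, by the direct test over 18 libraries in edgeR. For TmLoc042692 the departure was 3.80 on the log2 scale (6.27 at 300 °Cd, 2.19 at 400 °Cd and 2.67 at 600 °Cd). For TmLoc031790 it was 1.93 ± 0.37 (SE, edgeR adjusted p 0.0218). Its mean level at 600 °Cd was 23.3 ± 6.93 CPM in N-S- grain and 34.9 ± 12.8 CPM in N+S+ grain (SD, n = 3 each). That difference did not pass the test (edgeR adjusted p 0.944). For TmLoc021586 the departure was -3.50, with a fold change of the opposite sign at 600 °Cd that did not pass the test there. For TmLoc031553 it was -1.70 ± 0.26 (SE, edgeR adjusted p 0.00209). Its mean level at 600 °Cd was 126 ± 17.0 CPM in N-S- grain and 71.1 ± 11.0 CPM in N+S+ grain (SD, n = 3 each). That difference did not pass the test either (edgeR adjusted p 0.133).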

How the results depend on the processing

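The 312 calls at 300 °Cd were 300 with DESeq2, 472 without the filter on low counts, 1043 with library totals alone (94.6% of them higher, against 59.9% with TMM) and 44 in a fit to 30 libraries, of which 41 were among the 312. In that fit TmLoc031120, TmLoc025590, TmLoc001192 and TmLoc031790 kept their direction and lost the call. Leaving out each library gave 158 to 316. The 400 °Cd count was 214 without the filter, and 53 to 214 with a library left out. The 600 °Cd count was 58 with DESeq2, 126 without the filter, and 1 to 64 with a library left out. N+S- against N-S+ gave 59 without the filter, and 11 to 31 with a library left out. The difference between stages gave 32 with DESeq2, 62 without the filter, 4 in the fit to 30 libraries, 6 with the length trend removed and 3 to 8 with a library left out; against 600 °Cd alone it gave 27, and against 400 °Cd alone 0 in edgeR, with 1305 accessions at an unadjusted p under 0.05. Leaving out a library moved the top-20 difference between -11.2 and -8.27 points, the detection difference between 33.3 and 330, and the 200 to 300 °Cd count between 4717 and 5501. TmLoc019089, which passed no test between N-S- and N+S+ grain, ran between -0.014 (without N-S- replicate 1) and 0.22 (without N-S- replicate 3). The cause of these changes was not tested.

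Whether the replicate numbers pair the samples is not known from the labels. Same-numbered libraries of the 2 treatments at 300 °Cd correlated at -0.03, 0.04 and 0.08 in their deviations from the group means. Differently numbered ones ran between -0.10 and 0.05. With 3 libraries per treatment these values cannot decide whether samples were paired. With a replicate block the count at 300 °Cd was 436, with all 312 among them, the 600 °Cd count was 86, the difference between stages gave 21, and N+S- against N-S+ gave 29.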
